A study of Homo sapiens with 4 samples.

Results

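The selective autophagy receptors examined here were 10 genes, OPTN, SQSTM1, NBR1, CALCOCO2, TAX1BP1, BNIP3, BNIP3L, FUNDC1, TOLLIP and NCOA4, chosen by name out of 20033 protein-coding genes annotated by GENCODE on chromosomes 1 to 22, X and Y. Each was searched, over its annotated span and the 2 kb around it, for peaks of RNA polymerase II (Pol II), the enzyme that transcribes protein-coding genes. The peaks came from chromatin immunoprecipitation with a Pol II antibody followed by sequencing (ChIP-seq) in SK-OV-3, an established human ovarian cancer line. In one group of cells a lentiviral short hairpin RNA silenced RRN3, which RNA polymerase I needs to start transcription of ribosomal RNA (shRRN3), and in the other the hairpin targeted bacterial LacZ as a control (shLacZ). Both groups were the same cell line with a stably introduced hairpin vector, and the labels give no further treatment for either. The study lists 3 hairpins against RRN3, and which of them was used for these libraries, and whether the cells were a pool or a clone, is not given in the sources used here.

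There was 1 Pol II library for each hairpin, so replicate error is unknown and no difference between the lists was tested. The 2 input libraries among the 4 samples were not analysed here. There were 4014 peaks for shLacZ and 14363 for shRRN3, and the lists give no read counts, so the sequencing depth behind them cannot be read from them, and no other source of depth was used. The part that depth, the efficiency of the immunoprecipitation or peak calling had in the unequal length of the lists was not tested, and the main counts in shRRN3 are therefore given also for the 3920 shRRN3 peaks with the highest scores, which is the number of shLacZ peaks on these chromosomes (the reduced shRRN3 list). Of 8 markers of an epithelial ovarian line, PAX8 had a peak at its start in both lists, EPCAM had one in shRRN3 only, as did KRT8 and KRT18, which share it, and KRT19, ERBB2, WT1 and MUC16 had none in either. None of 5 markers of leukocytes, endothelium and fibroblasts had a peak at its start in either list. PECAM1, of the endothelium, had a shRRN3 peak inside the gene with a score of 51.8. Of all protein-coding genes, 7.56% had a start peak in shLacZ and 23.7% in shRRN3, so its absence from 5 genes says little about cell type. No peak lay in RRN3 or within 2 kb of it in either list. Peak lists do not measure the silencing, for which the study shows western blots of RRN3.

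Selective autophagy receptors pick out cargo for degradation. Each binds a cargo, such as protein aggregates, damaged mitochondria, invading bacteria or iron-loaded ferritin. Many also bind ATG8-family proteins on the growing autophagosome membrane, through a short interaction motif, and the membrane then closes around receptor and cargo. Some receptors are soluble and recognise ubiquitin chains, others sit in the outer mitochondrial membrane, and receptors such as SQSTM1 are themselves degraded with their cargo, so that cells replace them by new transcription.

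In shLacZ cells 1 of the 10 receptor genes, NCOA4, had a Pol II peak in the gene or 2 kb around it, while 13.4% of all protein-coding genes did. In shRRN3 cells 7 of 10 had one, namely OPTN, SQSTM1, TAX1BP1, BNIP3, BNIP3L, FUNDC1 and NCOA4, beside 36.9% of all protein-coding genes. In the reduced shRRN3 list the number was 1 of 10, TAX1BP1, beside 15.7%. NBR1, CALCOCO2 and TOLLIP had no peak in either list. The genes that had a peak carried 11 in all, 1 from shLacZ and 10 from shRRN3, and none of the 11 shared a base with a peak of the other list.

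Counting only peaks whose midpoint lay within 1 kb of the start of the gene span, 0 of 10 receptor genes had one in shLacZ, beside 7.56% of all protein-coding genes. In shRRN3, OPTN, TAX1BP1, BNIP3, FUNDC1 and NCOA4 had one, 5 of 10, beside 23.7% of all protein-coding genes. The reduced shRRN3 list left TAX1BP1 alone, 1 of 10, beside 9.74%. All 5 thus had a start peak in shRRN3 and none in shLacZ, a pattern that 17.3% of all protein-coding genes showed. Among the 4753 genes with a start peak in shRRN3, 73.0% had none in shLacZ (exact Clopper-Pearson 95% interval 71.7 to 74.2%, covering counting error only), so the pattern of these 5 was also the commonest one. The same 5 genes had a shRRN3 peak lying over the start of the canonical transcript, the one that Ensembl takes as representative, beside 22.1% of all genes, and again 0 of 10 had one in shLacZ, beside 6.62%. When the start of any annotated transcript counted, SQSTM1 joined them to give 6 of 10 in shRRN3, beside 28.2%, and 0 of 10 in shLacZ, beside 9.28%.

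**Figure D1:**
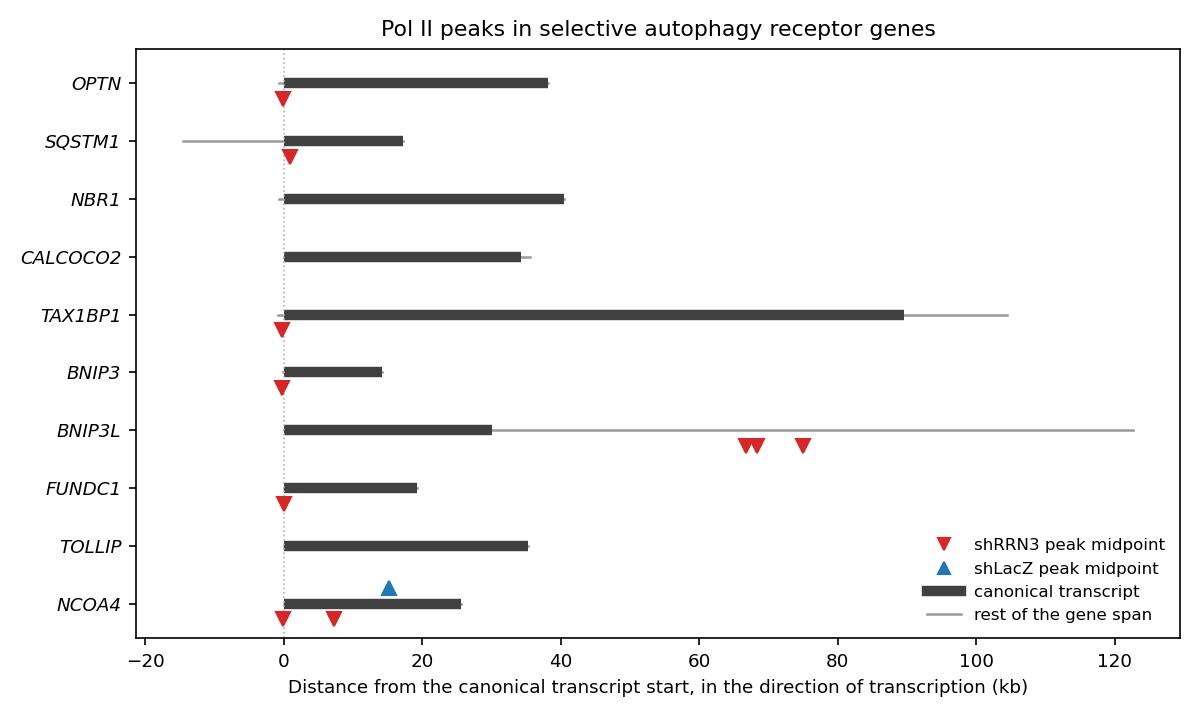
Each row is a receptor gene, with distance in kb from the canonical transcript start on the horizontal axis, the canonical transcript as a thick bar, the rest of the annotated span as a thin line, and peak midpoints as triangles (red for shRRN3, blue for shLacZ; 1 library each). The red triangles of 5 genes lie at the start, the 3 of BNIP3L lie beyond its canonical transcript, and the single blue triangle lies inside NCOA4.

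The soluble receptors that recognise ubiquitin were divided. OPTN, optineurin, which links ubiquitin-coated mitochondria and bacteria to the autophagosome, lies on the plus strand of chromosome 10 (13099449 to 13138308, GRCh38). Its only peak, in shRRN3, was 584 bp wide and covered bases from -371 to +212 around the canonical start at 13100163, together with 4 of the 9 annotated transcript starts. The score was 62.34, which ranked 9671 of 14363 in the shRRN3 list and put the peak at percentile 32.7 (percentiles here run from 0 for the weakest to 100 for the strongest peak of the same list on chromosomes 1 to 22, X and Y). No shLacZ peak lay within 903 kb of the gene. A lncRNA without a symbol (ENSG00000289266) starts under the same peak on the other strand, and the annotated span of CCDC3, also on the other strand, starts 140 bp beyond the peak's edge, although the canonical CCDC3 start is 98370 bp from the peak's midpoint. ChIP-seq does not tell strands apart, so the OPTN peak cannot be assigned to OPTN alone.

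TAX1BP1, a ubiquitin-binding receptor for protein aggregates and bacteria, had the highest-scoring peak of the set. It lies on the plus strand of chromosome 7 (27739331 to 27844564). The shRRN3 peak was 640 bp wide, ran from -507 to +132 around the canonical start at 27740162, and covered 5 of 12 transcript starts. Its score of 106.83 ranked 3663 of 14363, percentile 74.6, just above the lowest score in the reduced list, 102.86, so that it was the only receptor peak kept there. The nearest shLacZ peak was 841 kb from the gene. TAX1BP1-AS1, an antisense lncRNA, starts 101 bp beyond the peak's edge and its span runs back across the whole peak, so this peak too cannot be assigned to one strand.

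SQSTM1, which encodes p62, the receptor that gathers ubiquitinated proteins into bodies and also binds KEAP1, differed from these in the place and shape of its peak. The gene span on chromosome 5 (179806398 to 179838078, plus strand) begins 14507 bp before the canonical start at 179820905, owing to longer transcripts. The shRRN3 peak lay in intron 1 of the canonical transcript, from +791 to +936, and did not cover any annotated start. It was 146 bp wide, narrower than all but about 0.251% of shRRN3 peaks, and its score of 67.63 ranked 8440 of 14363, percentile 41.3. No shLacZ peak lay within 193 kb of the gene. Because its midpoint was 864 bp from the canonical start but 15370 bp from the start of the span, the gene counted as having a start peak only when every transcript start was used.

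NBR1 and CALCOCO2, both on chromosome 17, had no peak in either list. NBR1, a receptor for aggregates and peroxisomes that works together with SQSTM1, spans 43170481 to 43211689, and the nearest peaks were 40.0 kb away in shLacZ and 44.5 kb away in shRRN3. CALCOCO2, also called NDP52, a receptor for bacteria and damaged mitochondria, spans 48831018 to 48866522, with the nearest peaks 41.6 kb away in shLacZ and 26.1 kb away in shRRN3. TOLLIP, an adaptor that binds ubiquitin through its CUE domain, lies on chromosome 11 (1274371 to 1309654, minus strand) and was far from any peak, 431 kb in shLacZ and 363 kb in shRRN3. A peak list holds only regions that passed the caller's threshold, so a gene without a peak may still carry Pol II below it.

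Of the receptors of the outer mitochondrial membrane, BNIP3 and FUNDC1 had a start peak in shRRN3 and BNIP3L did not. BNIP3, a hypoxia-induced mitophagy receptor, lies on the minus strand of chromosome 10 (131967684 to 131981967). Its shRRN3 peak was 678 bp wide, the widest of the 5 start peaks, ran from -532 to +145, and covered all 3 annotated starts. The score was 70.3, rank 7869 of 14363, percentile 45.2. The 200 bases around its midpoint were 84.0% G and C, higher than in 99.9% of shRRN3 peaks, and the peak held 103 CpG dinucleotides. A lncRNA without a symbol (ENSG00000273521), on the other strand, starts 1538 bp from the peak's edge. The nearest shLacZ peak was 1412 kb from the gene.

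FUNDC1, a receptor for mitochondria in hypoxia whose binding to ATG8 proteins is set by phosphorylation, had the weakest peak of the set. The gene lies on the minus strand of the X chromosome (44523639 to 44542859). The shRRN3 peak was 437 bp wide, close to the list's median width of 432 bp, and ran from -125 to +311. Its score of 53.52 ranked 12538 of 14363, percentile 12.7, near the lowest score in the list, 50. It was the only one of the 5 start peaks whose midpoint lay past the canonical start, at +93 in intron 1. The nearest shLacZ peak was 511 kb from the gene.

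NCOA4, the receptor that delivers ferritin to the lysosome and so releases iron, was the only receptor gene with peaks in both lists, at different places. It lies on the minus strand of chromosome 10 (46005088 to 46030623). In shRRN3 a peak of 511 bp ran from -298 to +212 around the start and covered 4 of 6 transcript starts, with a score of 62.3, rank 9676 of 14363, percentile 32.6. A second shRRN3 peak of 783 bp, the widest receptor peak, lay in intron 1 with its midpoint 7305 bp into the gene, over the start of a shorter annotated transcript, and had a score of 80.83, rank 6264, percentile 56.5. In shLacZ the single peak was 216 bp wide and lay in intron 2, with its midpoint 15128 bp into the gene and 4042 bp from the nearest transcript start. Its score of 55.79 ranked 3005 of 4014, percentile 25.5 of the shLacZ list. The midpoints of the shLacZ peak and of the nearer shRRN3 peak were 7.82 kb apart, so the gene had no place that both lists marked.

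**Figure D2:**
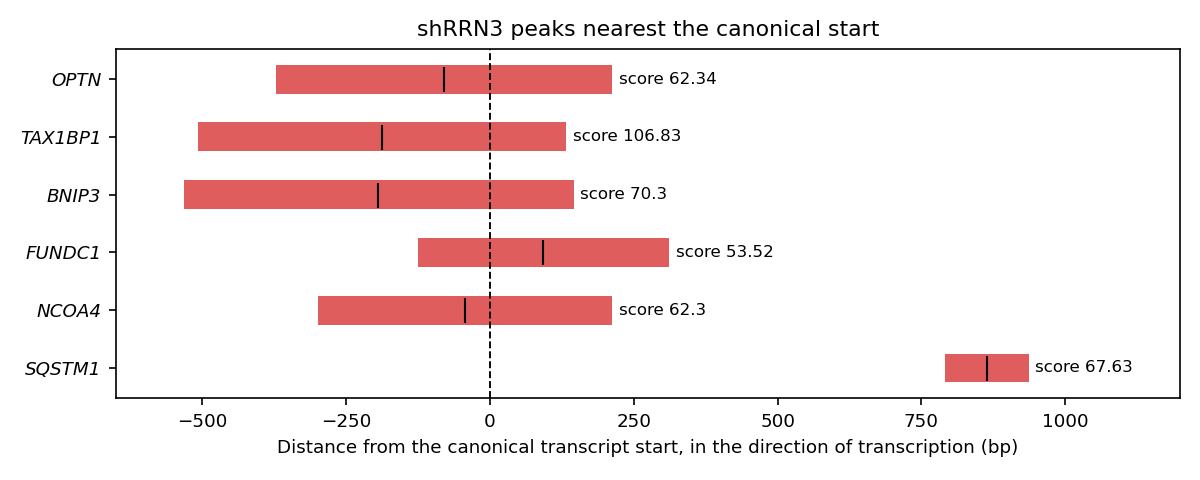
The shRRN3 peak nearest to the canonical start of 6 receptor genes is drawn as a bar from its first to its last base, in bp from that start in the direction of transcription, with a tick at the midpoint and the deposited score beside it (1 library). The bars of OPTN, TAX1BP1, BNIP3, FUNDC1 and NCOA4 cross the start, and that of SQSTM1 begins at +791.

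The sequences before the starts are shown because they are what lay under the 5 start peaks. For each gene the 250 bases before its canonical start are given 5′ to 3′ on the gene's strand, from RefSeq promoters of GRCh38.p14. Capitals mark the GC box GGGCGG, on either strand (GGGCGG or CCGCCC), and the E-box CACGTG, which reads the same on both strands.
OPTN (chr10:13099913-13100162, plus strand): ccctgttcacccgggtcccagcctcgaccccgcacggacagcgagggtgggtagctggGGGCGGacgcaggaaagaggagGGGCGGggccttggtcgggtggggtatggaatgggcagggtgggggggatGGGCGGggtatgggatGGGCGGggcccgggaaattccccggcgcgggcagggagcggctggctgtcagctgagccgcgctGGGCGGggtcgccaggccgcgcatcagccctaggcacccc
TAX1BP1 (chr7:27739912-27740161, plus strand): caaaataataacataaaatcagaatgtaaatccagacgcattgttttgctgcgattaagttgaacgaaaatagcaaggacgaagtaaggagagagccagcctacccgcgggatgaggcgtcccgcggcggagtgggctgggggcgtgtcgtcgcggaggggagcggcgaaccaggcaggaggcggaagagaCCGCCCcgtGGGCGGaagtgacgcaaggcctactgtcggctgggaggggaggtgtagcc
BNIP3 (chr10:131981924-131982173, minus strand): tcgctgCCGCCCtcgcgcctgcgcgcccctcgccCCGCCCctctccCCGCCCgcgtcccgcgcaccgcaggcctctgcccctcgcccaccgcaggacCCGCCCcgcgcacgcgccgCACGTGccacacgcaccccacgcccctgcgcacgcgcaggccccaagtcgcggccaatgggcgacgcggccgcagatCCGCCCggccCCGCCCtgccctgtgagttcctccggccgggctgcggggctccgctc
FUNDC1 (chrX:44542860-44543109, minus strand): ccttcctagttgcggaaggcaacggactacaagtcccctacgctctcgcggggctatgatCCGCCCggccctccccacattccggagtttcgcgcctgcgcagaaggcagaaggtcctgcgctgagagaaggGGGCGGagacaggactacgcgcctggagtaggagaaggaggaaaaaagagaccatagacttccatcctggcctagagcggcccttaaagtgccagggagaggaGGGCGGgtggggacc
NCOA4 (chr10:46030624-46030873, minus strand): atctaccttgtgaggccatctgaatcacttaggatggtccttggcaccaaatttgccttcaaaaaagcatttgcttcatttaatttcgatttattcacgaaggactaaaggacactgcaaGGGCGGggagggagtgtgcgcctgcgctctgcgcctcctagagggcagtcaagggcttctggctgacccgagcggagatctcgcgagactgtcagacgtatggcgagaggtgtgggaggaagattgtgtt
TOLLIP (chr11:1309633-1309882, minus strand): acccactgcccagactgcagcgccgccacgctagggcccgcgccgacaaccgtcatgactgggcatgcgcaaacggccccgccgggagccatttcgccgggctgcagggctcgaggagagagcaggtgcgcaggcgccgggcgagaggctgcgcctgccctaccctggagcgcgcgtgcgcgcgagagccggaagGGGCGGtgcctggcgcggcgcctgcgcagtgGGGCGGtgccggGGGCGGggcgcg
TOLLIP is printed beside the others as a start that is as rich in G and C but had no peak near it in either list. The shRRN3 peaks covered all 250 bases in OPTN, TAX1BP1, BNIP3 and NCOA4 and the 125 nearest the start in FUNDC1.

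RefSeq promoters matched 9 of the 10 genes by symbol, all but BNIP3L, and each of the 9 had an entry at the canonical start. The share of G and C did not separate the receptor windows with a shRRN3 peak over them from those without. SQSTM1 was grouped without one, although its peak's midpoint lay 864 bp past the canonical start. With a peak, the share of G and C in the 250 bases was 74.4% in OPTN, 58.8% in TAX1BP1, 81.6% in BNIP3, 62.4% in FUNDC1 and 52.0% in NCOA4. Without one, it was 73.6% in SQSTM1, 77.2% in TOLLIP, 54.8% in NBR1 and 58.8% in CALCOCO2, and the ranges overlapped. Over all 22199 promoters of protein-coding genes in the table the median was 62.0%, with quartiles of 52.0 and 70.4%. Not every protein-coding gene entered the comparison that follows. Across the genes that did, the medians were close, at 64.0% for 3836 genes with a shRRN3 start peak and 61.6% for 11473 without. The ratio of observed to expected CpG had medians of 0.858 and 0.672. In the receptor windows this ratio ran from 0.685 in OPTN to 1.10 in TAX1BP1 with a peak. Without one, it ran from 0.704 in CALCOCO2 to 0.976 in TOLLIP.

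**Figure D3:**
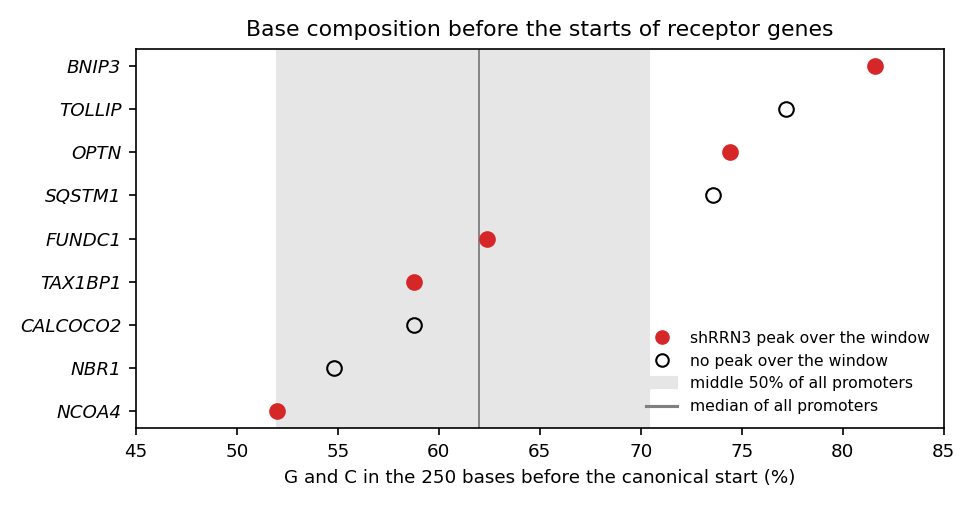
Points give the percent of G and C in the 250 bases before the canonical start of the 9 receptor genes with a RefSeq promoter, filled red where a shRRN3 peak lies over the window and open where none does; the grey band and line are the quartiles and median of all promoters. Filled and open points are interspersed from NCOA4 at 52.0% to BNIP3 at 81.6%.

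Motif matches are given as descriptions of these letters, not as binding sites. The GC box was present in all 9 windows at canonical starts, with 6 copies in BNIP3, 5 in OPTN, 4 in SQSTM1, 3 each in FUNDC1, TOLLIP and CALCOCO2, 2 each in TAX1BP1 and NBR1 and 1 in NCOA4. The windows of SQSTM1, TOLLIP, NBR1 and CALCOCO2, which had no peak over them, thus held it too, and BNIP3L was not examined. It was present in 13 of all 16 RefSeq promoters of these 9 genes and in 53.7% of all promoters, both of which include alternative starts. The shares of all promoters below include them too, unlike the 9 windows. The E-box CACGTG occurred in BNIP3 alone, at position -134 from the start, beside 7.37% of all promoters. ACGTG, a form of the core of the element bound by hypoxia-inducible factors, was searched on both strands, and other forms of the core were not. It overlaps that E-box and occurred in BNIP3 and CALCOCO2, beside 20.2% of all promoters. CCAAT, also on both strands, occurred in BNIP3 and NBR1, beside 32.7%, and TATAAA, on both strands, occurred in CALCOCO2, beside 9.00%.

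The peaks away from the canonical starts of NCOA4 and SQSTM1 are shown by their own sequence, read from GRCh38 on the gene's strand, because they differ in composition. The shRRN3 peak among them in NCOA4 covers the start of a shorter annotated transcript, and the shLacZ peak covers no start. For NCOA4 the central 150 bases are given, for SQSTM1 the whole peak, and capitals mark CpG dinucleotides.
NCOA4 intron 2, shLacZ peak (chr10:46015421-46015570): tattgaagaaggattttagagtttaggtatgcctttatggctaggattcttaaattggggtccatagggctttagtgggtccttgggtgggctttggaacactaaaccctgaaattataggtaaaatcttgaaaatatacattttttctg
NCOA4 intron 1, shRRN3 peak (chr10:46023243-46023392): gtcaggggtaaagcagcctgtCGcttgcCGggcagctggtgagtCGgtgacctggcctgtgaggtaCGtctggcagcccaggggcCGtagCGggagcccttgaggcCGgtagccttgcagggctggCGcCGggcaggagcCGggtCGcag
SQSTM1 intron 1, shRRN3 peak (chr5:179821696-179821841): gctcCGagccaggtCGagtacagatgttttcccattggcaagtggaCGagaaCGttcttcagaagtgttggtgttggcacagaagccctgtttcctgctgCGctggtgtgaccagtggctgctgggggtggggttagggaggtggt
The shLacZ stretch in NCOA4 held 0 CpG and 36.7% G and C, and the shRRN3 stretch in the same gene held 11 CpG and 70.7% G and C. Over the whole peaks the share of G and C was 37.0% in shLacZ and 59.9% in shRRN3. The SQSTM1 peak held 5 CpG and 57.5% G and C. The 3 shRRN3 peaks of BNIP3L, also away from any start and not printed, held 42, 9 and 3 CpG and 68.2, 50.9 and 44.5% G and C.

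The receptor peaks ranged in rank from low to above the middle of the list. Over the 10 shRRN3 peaks the score percentile had a median of 43.6 and ran from 12.7 in FUNDC1 to 74.6 in TAX1BP1. The 5 at gene starts had a median percentile of 32.7, against 61.6 for all 4371 shRRN3 peaks at protein-coding starts. The 5 elsewhere in the genes had a median of 56.5. Ranked by score among the 4753 genes with a shRRN3 start peak, TAX1BP1 was 1838th, BNIP3 3296th, OPTN 3825th, NCOA4 3829th and FUNDC1 4460th, so 4 of the 5 were below the median score of 90.93. OPTN and NCOA4 were nearly level, and with 1 library no neighbours in this order can be told apart by replicate error. In width the 5 start peaks ran from 437 to 678 bp with a median of 584 bp, beside 612 bp for all shRRN3 start peaks.

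**Figure D4:**
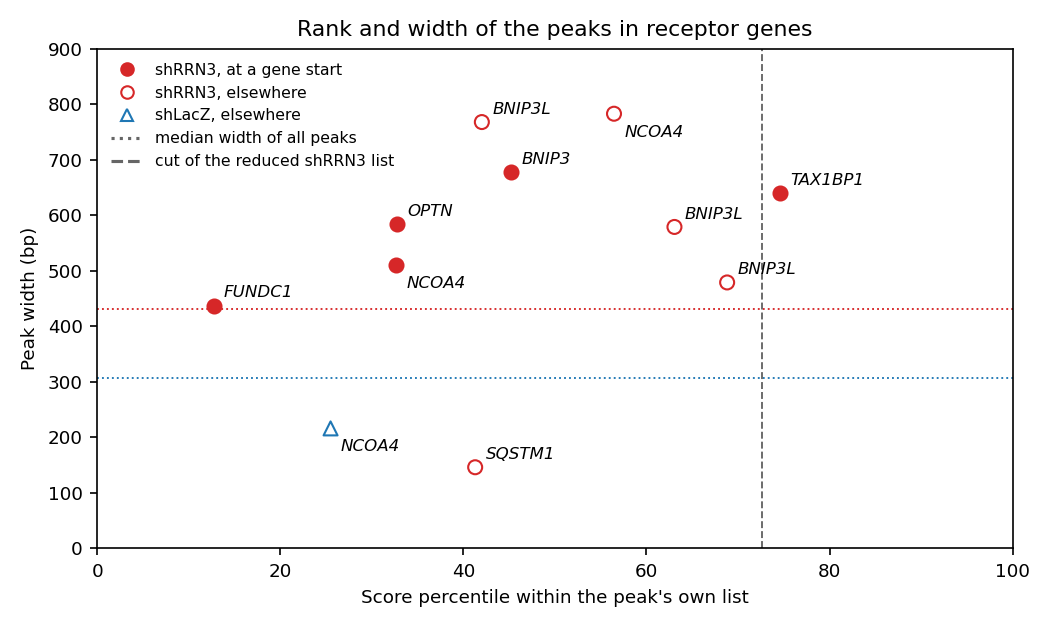
Each point is 1 of the 11 receptor peaks, with its score percentile within its own list on the horizontal axis and its width in bp on the vertical axis; filled points lie at a gene start, dotted lines are the median widths of all peaks (306 bp in shLacZ, blue; 432 bp in shRRN3, red), and the dashed line is percentile 72.6, above which peaks stayed in the reduced shRRN3 list. TAX1BP1 alone is to the right of the dashed line.

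The score of a shRRN3 start peak moved with whether shLacZ had a peak there. Of the 2501 shRRN3 start peaks with a score from 53.52 to 106.83, the range of the 5 receptor start peaks, 14.1% (exact Clopper-Pearson 95% interval 12.8 to 15.5%) were overlapped by a shLacZ peak. Of the 1531 with a higher score, 45.3% (42.7 to 47.8%) were. For the 5 receptor genes it was 0 of 5. These intervals cover counting error only and treat peaks as independent.

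BNIP3L, also called NIX, the mitochondrial receptor needed to clear mitochondria from maturing red blood cells, had 3 peaks, all in shRRN3 and none at its start. The annotated span on chromosome 8 (26383054 to 26505636, plus strand) is 122.583 kb long, whereas the canonical transcript ends at 26413127, and the 3 peaks lay 36.7, 38.3 and 44.9 kb past that end. They were 579, 768 and 479 bp wide, had scores of 87.85, 68.11 and 96.27 and ranked 5319, 8336 and 4493 of 14363, which is percentile 63.1, 42.0 and 68.8. All 3 fell in intron 5 of a long annotated transcript with 6 exons over 122.44 kb. The nearest of them was 66.7 kb from the canonical start. By the RefSeq span, which ends with the canonical transcript, BNIP3L had 0 peaks and the number of receptor genes with a shRRN3 peak was 6 of 10, so the count for this gene depends on which transcript model is used. The nearest shLacZ peak was 1988 kb from the gene.

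Genes that work with the receptors were read from 3 lists and set beside them. Of 18 other cargo receptors, for the endoplasmic reticulum, the Golgi, mitochondria, aggregates, ribosomes and glycogen, 3 had a start peak in shLacZ, 10 in shRRN3 and 4 in the reduced shRRN3 list, beside 7.56, 23.7 and 9.74% of all protein-coding genes. SEC62, RTN3 and BCL2L13 had one in both lists. SEC62, which acts in recovery from stress of the endoplasmic reticulum, had a score of 58.0 (percentile 32.0) in shLacZ and 119.82 (percentile 80.1) in shRRN3, each within its own list. RTN3, a receptor for tubules of the endoplasmic reticulum, was at percentile 32.8 in shLacZ and 76.7 in shRRN3. The start peak of BCL2L13, of the mitochondria, was near the floor of both lists, at percentile 11.9 and 3.70. Stronger peaks farther into BCL2L13 overlapped between the lists, at percentile 72.2 in shLacZ and 91.0 in shRRN3. YIPF3 and YIPF4 of the Golgi (percentile 89.6 and 40.5), WDFY3 for aggregates (88.0), ATL3 (63.6), PHB2 of the inner mitochondrial membrane (49.1), the chaperonin subunit CCT2 (31.3) and NUFIP1 for ribosomes (43.0) had one in shRRN3 only. The 10 receptor genes had 0 start peaks in shLacZ where these 18 had 3, a difference that was not tested.

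Of 15 enzymes and factors that act on the receptors or their genes, 2 had a start peak in shLacZ, 5 in shRRN3 and 4 in the reduced list, beside the same shares of all genes. TBK1, the kinase that phosphorylates OPTN, SQSTM1 and CALCOCO2, had a shRRN3 peak of 1324 bp at percentile 91.2, far above the peak of OPTN itself at 32.7. HIF1A, whose product induces BNIP3 and BNIP3L in hypoxia, was at percentile 91.4, and NFE2L2, whose product induces SQSTM1, was at 87.0. Neither had a start peak in shLacZ, but HIF1A had 3 shLacZ peaks in the gene or 2 kb around it and NFE2L2 had 4. The highest-scoring of these in HIF1A (61696902 to 61697147, percentile 53.7) lay just past its shRRN3 start peak (61694896 to 61696891). The highest-scoring in NFE2L2 was at percentile 91.3 of the shLacZ list. In shRRN3, HIF1A had 30 peaks by the same rule and NFE2L2 had 14. The highest-scoring of those were at percentile 99.2 in HIF1A and 97.0 in NFE2L2. ULK1, the kinase that phosphorylates FUNDC1, was at 12.4, beside FUNDC1 at 12.7. FOXO3, a transcription factor for BNIP3, had a start peak in both lists, at percentile 40.0 in shLacZ and 77.8 in shRRN3. KEAP1, the SQSTM1-bound adaptor of a ubiquitin ligase, had one in shLacZ alone, at percentile 2.16 (10502691 to 10503062). Its shRRN3 peak (10501834 to 10502550) lay close by, farther into the gene, with its midpoint outside the 1 kb window. With a window of 2 kb, 3 of the 15 enzymes and factors had a start peak in shLacZ and 6 in shRRN3. PINK1, CSNK2A1, PGAM5, SRC, TFEB, TFE3, USP30 and HERC2 had no start peak in either list.

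Of the 7 ATG8-family genes, whose products many of the receptors bind, GABARAP alone had a start peak. It had one in both lists, at percentile 83.6 in shLacZ and 64.6 in shRRN3, but not in the reduced list. Both of these GABARAP peaks lay wholly upstream of the gene. MAP1LC3B had 1 peak inside the gene in each list, at percentile 60.6 in shLacZ and 85.1 in shRRN3. Those 2 peaks did not overlap. Over all 40 genes of the 3 lists, 6 (15.0%) had a start peak in shLacZ, 16 (40.0%) in shRRN3 and 8 (20.0%) in the reduced list. The receptor genes stood at 0 of 10, 5 of 10 and 1 of 10, and all protein-coding genes at 7.56, 23.7 and 9.74%.

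**Figure D5:**
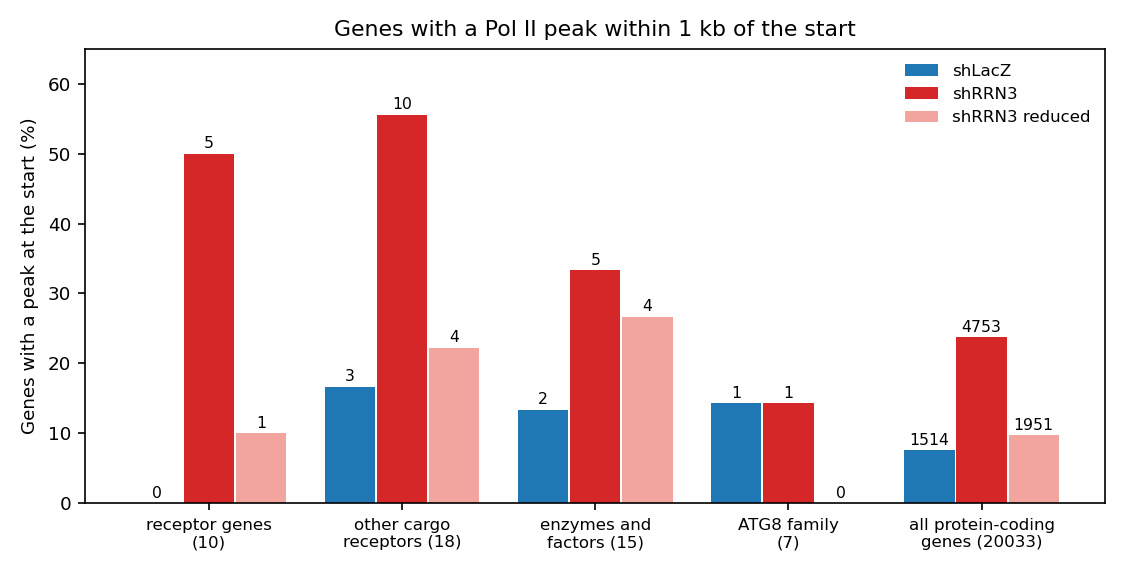
Bars, from 0, give the percent of genes in each set with a peak midpoint within 1 kb of the gene start, in shLacZ (blue), shRRN3 (red) and the reduced shRRN3 list (pink), with the number of genes above each bar and the size of the set in brackets. The receptor genes have no blue bar, a red bar of 5 genes and a pink bar of 1 gene.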

How the data were processed

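Pol II ChIP-seq libraries of SK-OV-3 cells were analysed from 1 deposited peak list per hairpin. The authors called peaks in each library with MACS, as the names of the peaks show. Its version and threshold, the aligner, the treatment of duplicate reads and the use of input are not given in the sources used here. The score deposited with each peak, read here as the −log10 p-value times 10, was ranked only within its own list. The other deposited columns used were coordinates, whose starts were moved from 0-based to 1-based. The submitters' processing notes name hg38. Genes and transcripts came from GENCODE release 44 (GRCh38). Peaks counted for a gene when at least 1 bp overlapped its span or the 2 kb around it. Base composition was taken over 200 bp around peak midpoints. No test was made between hairpins. Named genes were all 10 receptor genes, genes of the 3 lists with a start peak, annotated genes within 2 kb of a receptor peak, and RRN3; further genes of the lists and markers are named where a count needs them. Of the genes in the lists, 1 is not reported here by name. The genes and lists were chosen with earlier results of these data known. Counting was tested on simulated lists. Scripts ran in Python 3.11.15 with pandas 2.3.3, numpy 2.4.6, matplotlib 3.10.9 and scipy 1.17.1.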

Additional observations from a re-analysis of the deposited data

How the results depend on the processing

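Each hairpin had 1 library, the peak lists give no depth, and intervals cover counting error only. No paired analysis was possible because each hairpin had 1 library. Of the alternatives to the main counts and medians, 36 changed it little and 16 moved it further. With only peaks at or above the shLacZ median score of 65.58, the receptor genes with a peak in shLacZ fell from 1 to 0 and those with a start peak in shRRN3 from 5 to 2. Those with any peak in shRRN3 fell from 7 to 5, which was counted as little change. The reduced shRRN3 list gave 1 receptor gene with a peak and 1 with a start peak, a median receptor peak width of 640 bp in place of 581.5 bp, 4 in place of 10 other cargo receptors with a start peak, and 0 in place of 1 ATG8-family gene. A start window of 0.5 kb gave 3 receptor genes in shRRN3, since the spans of OPTN and TAX1BP1 begin over 0.5 kb before their peaks' midpoints. Counting any transcript start gave 4 enzymes and factors in place of 2, and 2 ATG8-family genes in place of 1, in shLacZ. The median percentile of the best peak per receptor gene was 45.2 in shRRN3, 74.0 when ranked by width and 34.0 among start peaks; for NCOA4 in shLacZ it was 25.5, 26.4 and 18.0. Among the 10398 genes with spans as long as the receptor genes', 14.4% had a peak in shLacZ and 41.6% in shRRN3. RefSeq spans and peaks over the canonical start were alternatives chosen after the data were seen, and gave 6 receptor genes with a peak and 5 with a start peak in shRRN3.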
